A study of Rattus norvegicus with 13 samples.

Results

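The star strands of 47 microRNA (miRNA) hairpins, the strands whose names end in an asterisk, were followed in rat cortical neurons, astrocytes, oligodendrocytes and microglia, each beside the guide that carries the same name without the asterisk. The array measured 350 miRNAs, 58 of them star strands. The 47 were all of these except 5 of the imprinted Dlk1-Dio3 domain and 6 set aside by name, namely miR-9*, miR-129*, miR-136*, miR-138*, miR-322* and miR-338*. A guide of exactly the same name was present for 40 of them. For 6 the guide carries no locus number because more than 1 hairpin yields it (miR-24, miR-29b and miR-30c), and miR-125b* was set beside miR-125b-5p, which left 44 different guides.

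A miRNA is cut from a hairpin transcript. After the enzyme Dicer has removed the loop, a duplex of both arms is left, from which an Argonaute protein usually keeps 1 strand, the guide, while the other, the passenger, is discarded. The asterisk was given to the arm that was cloned less often when the hairpin was first described, so it is a historical name and not a measurement in these cells. Whichever arm is kept pairs with messenger RNAs mainly through its seed, bases 2 to 8 from the 5′ end, so the arms of 1 hairpin have different targets.

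Primary cultures, not cell lines, were made from rat cortex at postnatal day 1: 3 arrays of neurons, grown with cytosine arabinoside (Ara-C), which kills dividing cells; 4 of astrocytes, grown with horse serum and then shaken overnight, which detaches other cells; 3 of oligodendrocytes, replated from the medium of shaken mixed cultures; and 3 of microglia, collected as floating cells from mixed cultures. No treatment or genetic change was given. The labels put all samples at 10 days in vitro, whereas the culture protocol has microglia taken at 7 days. The study's design text calls the replicates biological, and each sample was Cy3-labelled total RNA on an array of its own. Neurons and oligodendrocytes shared 1 slide, and astrocytes and microglia shared the other, so neurons against oligodendrocytes and microglia against astrocytes are comparisons within a slide, while in the other pairs slide and type cannot be told apart.

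All 8 marker miRNAs were highest in the type they mark: miR-124 and miR-128 in neurons, miR-219-5p and miR-338 in oligodendrocytes, and miR-142-3p, miR-142-5p, miR-223 and miR-146a in microglia. No astrocyte marker was used. The 4 myeloid markers were also detected on every astrocyte and oligodendrocyte array. The log2 of their summed signal was 4.74 to 4.93 in microglia, against -5.38 to -5.11 in neurons. It was 0.88 to 0.93 in astrocytes and -0.73 to 0.72 in oligodendrocytes. On neuron arrays miR-223 was detected on all 3, miR-142-3p and miR-146a on 1 each and miR-142-5p on none. The neuronal miR-124 stood at -1.72, 1.21 and -0.94 on the oligodendrocyte arrays, highest on array 2. The part that other cells played in the glial values was not tested. In bulk RNA, fewer cells of a kind and less RNA per cell cannot be told apart.

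The sequences on which the results turn are given 5′ to 3′ with the seed in capitals, from RefSeq (GRCr8), which held 40 of the 47 star strands, 25 on the 3p arm and 15 on the 5p arm. The star and the guide of miR-99b are shown because their signals crossed between cell types, miR-99a* because it has the same seed as miR-99b*, and miR-125b* with its guide because that pair had the largest signal gap in neurons. The miR-140 and miR-296 pairs are shown because the star was nearly as bright as the guide or was detected without it. miR-21* and miR-378* are shown as star strands higher in microglia, and miR-24-1* and miR-24-2* as star strands of 2 hairpins with 1 seed, of which 1 was detected.
miR-99b*: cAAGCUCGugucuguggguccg
miR-99b: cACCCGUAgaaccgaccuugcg
miR-99a*: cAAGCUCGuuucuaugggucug
miR-125b*: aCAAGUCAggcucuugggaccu
miR-125b-5p: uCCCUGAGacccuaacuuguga
miR-140*: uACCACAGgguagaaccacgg
miR-140: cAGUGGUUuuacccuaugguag
miR-296*: aGGGCCCCcccucaauccugu
miR-296: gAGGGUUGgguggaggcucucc
miR-21*: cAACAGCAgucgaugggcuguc
miR-378*: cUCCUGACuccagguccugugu
miR-24-1*: gUGCCUACugagcugauaucag
miR-24-2*: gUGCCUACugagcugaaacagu

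Among the star strands with a sequence, 3 seeds were shared: AAGCUCG by miR-99a* and miR-99b*, UGCCUAC by miR-24-1* and miR-24-2*, and UGGGAGA by miR-30c-1* and miR-30c-2*. miR-99a* and miR-99b* were identical at 19 of 22 positions, miR-30c-1* and miR-30c-2* at 19 of 22, and miR-24-1* and miR-24-2* at 17 of 22. In GRCr8, miR-99b* lies at chr1:67350108-67350129 on the plus strand, miR-99a* at chr11:29687441-29687462 and miR-125b* at chr11:29732627-29732648, both on the plus strand of the same chromosome. miR-140* lies at chr19:52375353-52375373 (plus strand), miR-296* at chr3:183470114-183470134, miR-21* at chr10:71902615-71902636 and miR-378* at chr18:57128962-57128983 (all minus strand).

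Fewer star strands than guides were detected in every culture. By the scanner software's call, 9 of the 47 star strands were detected on all 13 arrays, 29 on at least 3, 4 on only 1 or 2 (let-7b*, miR-126*, miR-193* and miR-34c*) and 14 on none. Of the 44 guides, 33 were detected on all 13 arrays and 39 on at least 3, and over the whole array 119 of 350 miRNAs were detected on all arrays and 69 on none. The 9 star strands present throughout were miR-22*, miR-24-2*, miR-30a*, miR-30e*, miR-99a*, miR-99b*, miR-125b*, miR-140* and miR-296*. For 10 of the 14 star strands found on no array the guide was detected on all 13, among them let-7i*, miR-101a*, miR-218* and miR-26b*.

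Per array, 24 to 27 star strands were detected in neurons, 12 to 26 in astrocytes, 16 to 22 in microglia and 19 to 22 in oligodendrocytes. Of all 350 miRNAs, 241 to 258, 160 to 208, 160 to 176 and 193 to 201 were detected, in the same order. Detected on every array of a type were 24 star strands and 38 guides in neurons, 12 and 37 in astrocytes, 14 and 34 in microglia, and 19 and 36 in oligodendrocytes. Of all 350 miRNAs, the counts were 239 in neurons, 160 in astrocytes, 152 in microglia and 188 in oligodendrocytes. The low astrocyte count came from array 3, which detected 12, while the other astrocyte arrays detected 18 to 26. Over all miRNAs array 3 also had the fewest detected among the astrocyte arrays, 160. The lowest level that counted as detected lay between -10.03 and -8.28 on neuron arrays, -9.17 and -7.67 on astrocyte arrays, -8.13 and -7.62 on oligodendrocyte arrays, and -7.67 and -6.79 on microglia arrays, so these counts were not read as a difference between types. The summed signal of the 47 star strands was 0.529% to 0.582% of all miRNA signal in neurons, 0.464% to 0.549% in astrocytes, 0.650% to 0.818% in microglia and 0.636% to 0.673% in oligodendrocytes.

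**Figure D1:**
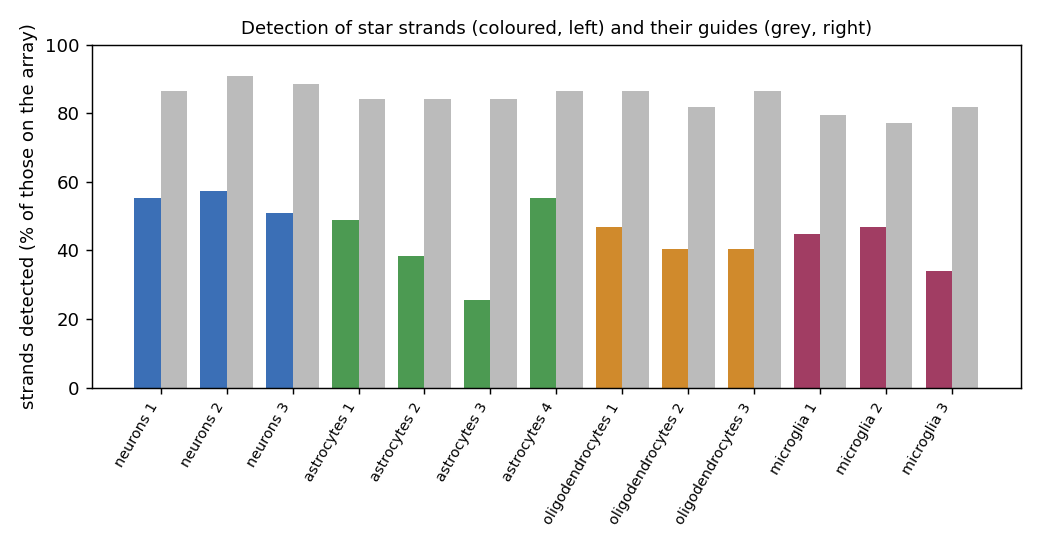
Percentage of the 47 star strands (coloured bars, left of each pair) and of their 44 guides (grey bars, right) detected on each of the 13 arrays. Guides exceeded star strands on every array, and astrocyte array 3 had the fewest star strands, 12.

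Levels below are log2 of a miRNA's signal divided by the 75th percentile of its array over the 119 miRNAs detected everywhere, so 0 is that percentile and every star strand lies below it. Values under -8.04, a floor set from the detection limit, were raised to it. The 29 star strands detected on at least 3 arrays were tested, and 25 of them passed limma's F test for any difference between types at an adjusted p under 0.05, where 95.5% of all 268 tested miRNAs did, as did all 39 of their tested guides. The 4 that did not pass were let-7d*, let-7e*, miR-151* and miR-23a*. Of the 25, miR-124* and miR-204* met the 3-array filter only through neurons, and miR-21* and miR-378* only through microglia. The filter itself thus favoured a difference in these 4, and their levels are given as a description without a p-value. miR-23a* also met the filter only through neurons, without passing the F test. The call of higher or lower was made where a star strand of a type differed from each of the other 3 by an adjusted p under 0.05 and by at least 2-fold.

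**Figure D2:**
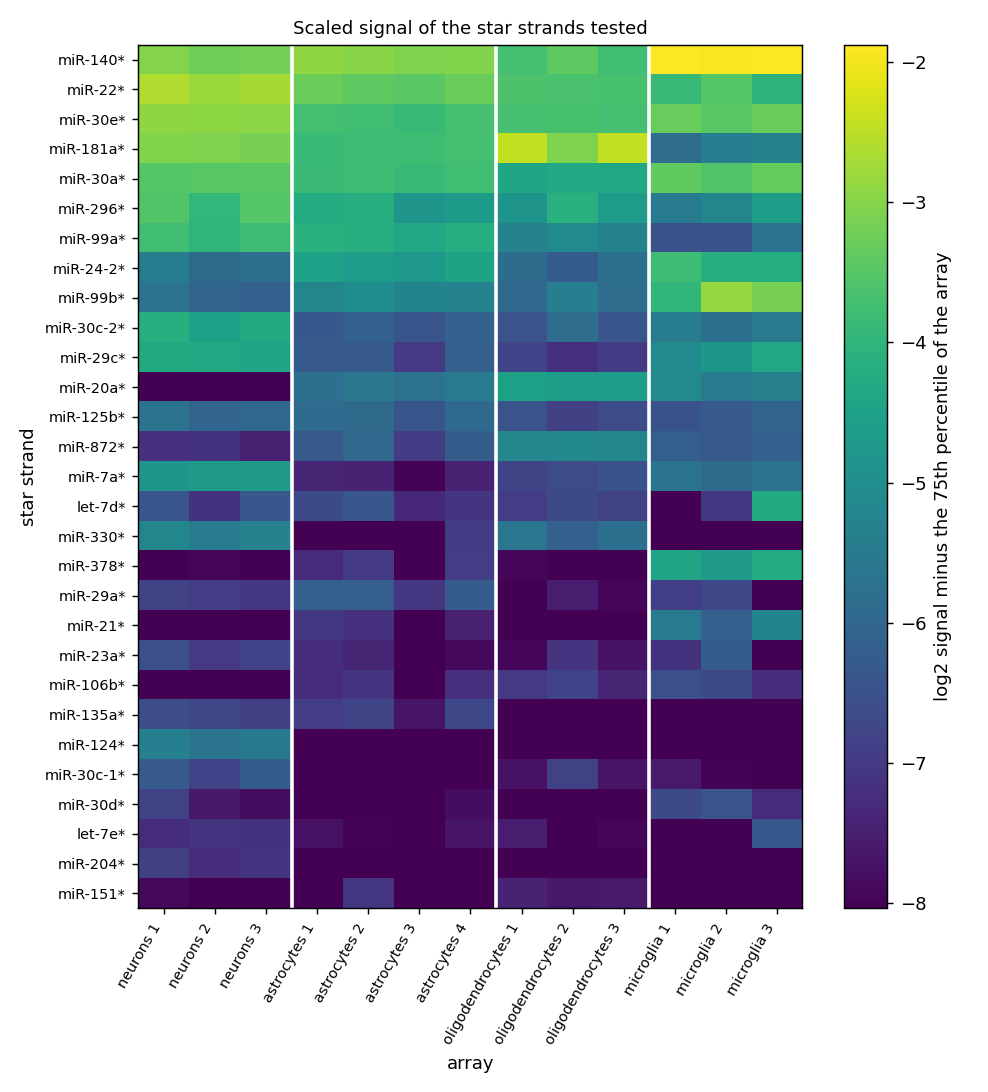
Scaled log2 signal of the 29 tested star strands (rows, brightest on average at the top) on the 13 arrays (columns, white lines between types). The dimmest rows lie at the floor of -8.04 on most arrays.

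In microglia, 4 star strands were higher than in every other type (12.7% of all tested miRNAs were called so) and 1, miR-181a*, was lower (15.7%). The 4 include miR-21* and miR-378*, which met the 3-array filter only through microglia. The call that held under each of the 25 alternatives was that of miR-99b*, from a hairpin that shares a short stretch of chromosome 1 with let-7e and miR-125a. miR-99b* stood at -3.98, -2.85 and -3.14 in microglia, against -5.68, -6.04 and -6.12 in neurons, -5.22, -5.04, -5.26 and -5.30 in astrocytes and -5.95, -5.40 and -5.84 in oligodendrocytes. No array of another type reached the lowest microglia array. It was 3.69-fold higher in microglia than in astrocytes, the closest type (log2 difference 1.88 ± 0.24 SE, limma adjusted p = 2.83e-05), and 6.18-fold higher than in neurons (log2 difference 2.63 ± 0.26 SE, limma adjusted p = 1.86e-06).

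The guide went the other way. miR-99b stood at -4.54, -4.06 and -5.17 in microglia, against -1.48, -1.69 and -1.65 in neurons, -1.47, -1.47, -1.59 and -1.61 in astrocytes and -1.49, -1.57 and -1.47 in oligodendrocytes. Its microglia values were all far below those of the other types, whose arrays overlapped. The guide was lower in microglia than in astrocytes (log2 difference -3.06 ± 0.20 SE, limma adjusted p = 1.02e-07), than in neurons (log2 difference -2.98 ± 0.21 SE, limma adjusted p = 1.07e-07) and than in oligodendrocytes (log2 difference -3.08 ± 0.21 SE, limma adjusted p = 1.63e-07). All 4 probes of miR-99b* were higher in microglia than in astrocytes, by 1.17 to 2.43 on the log2 scale, and than in neurons, by 1.75 to 3.32, and both probes of miR-99b had a microglia minus astrocytes difference of -3.04 or -3.08.

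miR-378*, whose hairpin lies in the gene of the metabolic coactivator PGC-1β in mouse and human, was detected on all 3 microglia arrays and on 1 other, of astrocytes. Its level was -4.44, -4.73 and -4.27 in microglia, against -8.04, -7.93 and -8.04 in neurons, -7.28, -6.99, -8.04 and -6.92 in astrocytes and -7.96, -8.04 and -8.04 in oligodendrocytes. Only the microglia arrays lay well clear of the floor. The level in microglia was 7.11-fold higher than in astrocytes and at least 11.5-fold and 9.75-fold higher than in neurons and oligodendrocytes, where no array detected it. The guide miR-378 was also higher in microglia than in astrocytes (log2 difference 2.34 ± 0.17 SE, limma adjusted p = 2.59e-07).

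miR-21*, the partner of miR-21, which is induced in many activated and growing cells, stood at -5.48, -6.11 and -5.26 in microglia, against -8.04, -8.04 and -8.04 in neurons, -7.03, -7.15, -8.04 and -7.48 in astrocytes and -8.04, -8.04 and -8.04 in oligodendrocytes. Neuron and oligodendrocyte arrays did not detect it, and 2 of 4 astrocyte arrays did. It was 3.5-fold higher in microglia than in astrocytes, at least 5.35-fold higher than in neurons and at least 4.5-fold higher than in oligodendrocytes. Its guide, miR-21, was higher in microglia than in astrocytes (log2 difference 0.65 ± 0.26 SE, limma adjusted p = 0.0492). In the deposited series table the smallest difference of miR-21* was 0.97, below the 2-fold limit.

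miR-140*, the 3p arm of a hairpin best known from cartilage, was the star strand with the highest signal in microglia and in astrocytes. Its level was -1.89, -1.94 and -1.88 in microglia, against -3.02, -3.24 and -3.15 in neurons, -2.89, -2.98, -3.08 and -3.03 in astrocytes and -3.72, -3.41 and -3.77 in oligodendrocytes, and the microglia arrays lay above all others. The excess over astrocytes was 2.14-fold (log2 difference 1.10 ± 0.09 SE, limma adjusted p = 8.35e-07), close to the 2-fold limit, and without scaling it was 0.28 in log2 and the call was lost. The guide miR-140 was also higher in microglia than in astrocytes (log2 difference 0.90 ± 0.07 SE, limma adjusted p = 7.26e-07).

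miR-181a* comes from a hairpin whose guide is abundant in neurons and lymphoid cells. It stood at -5.83, -5.39 and -5.28 in microglia, against -3.04, -3.06 and -3.15 in neurons, -3.88, -3.81, -3.78 and -3.71 in astrocytes and -2.44, -3.07 and -2.45 in oligodendrocytes, lower on each microglia array than on any other array, and 2 of 3 microglia arrays detected it. The difference from astrocytes, the closest type, was -1.70 ± 0.16 SE in log2 (limma adjusted p = 2.44e-06). For the guide miR-181a it was -0.44 ± 0.14 SE (limma adjusted p = 0.0135). The call of miR-181a* was lost with quantile normalization, at -0.96, and in the deposited series table, at -0.71.

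Neurons had 3 star strands called higher, miR-124* included (27.2% of all tested miRNAs were), and 1 called lower (7.46%). miR-124*, from the hairpins of the main neuronal miRNA, was detected on the 3 neuron arrays, at -5.37, -5.66 and -5.55, and on no other. That put it at least 5.34-fold higher than in astrocytes, 4.8-fold higher than in oligodendrocytes and 3.03-fold higher than in microglia. The guide miR-124 was detected on all astrocyte and oligodendrocyte arrays as well.

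miR-30c-2* stood at -4.16, -4.54 and -4.30 in neurons, against -6.34, -6.14, -6.45 and -6.16 in astrocytes, -6.46, -5.83 and -6.39 in oligodendrocytes and -5.45, -5.78 and -5.47 in microglia. The neuron arrays did not overlap those of any other type, and the excess over microglia was 2.35-fold (limma adjusted p = 4.52e-05). miR-7a*, whose guide is high in neurons and neuroendocrine cells, stood at -4.81, -4.71 and -4.70 in neurons, against -7.38, -7.42, -7.97 and -7.46 in astrocytes, -6.76, -6.63 and -6.48 in oligodendrocytes and -5.68, -5.91 and -5.74 in microglia. Neuron arrays again lay above all others, with an excess over microglia of 2.06-fold (limma adjusted p = 4.47e-05). These calls depended on the scaling: the smallest difference was 0.03 for miR-30c-2* and -0.16 for miR-7a* with the 75th percentile over all miRNAs, and 0.04 and -0.21 after quantile normalization.

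miR-20a*, from the miR-17-92 cluster that is active in dividing cells, was at the floor on all 3 neuron arrays, 1 of which detected it, against -5.80, -5.59, -5.74 and -5.52 in astrocytes, -4.55, -4.58 and -4.60 in oligodendrocytes and -5.11, -5.53 and -5.36 in microglia. Neurons lay below every other array, and the difference from astrocytes was -2.38 ± 0.10 SE (limma adjusted p = 1.24e-09), which the floor limits. The guide miR-20a differed by -2.49 ± 0.13 SE (limma adjusted p = 1.19e-08). From the paralogous miR-106b-25 cluster, miR-106b* was detected on 9 arrays and miR-25* on none.

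In oligodendrocytes miR-872* was the star strand called higher (4.85% of all tested miRNAs were) and none was lower (3.36%); in astrocytes none was higher (3.36%) or lower (2.99%). miR-872* stood at -5.19, -5.15 and -5.20 in oligodendrocytes, against -7.17, -7.12 and -7.48 in neurons, -6.29, -5.97, -6.96 and -6.23 in astrocytes and -6.17, -6.31 and -6.15 in microglia. The oligodendrocyte arrays were the highest of all, with an excess over microglia of 2.04-fold (limma adjusted p = 0.000911), just past the 2-fold limit. Without astrocyte array 3 or microglia array 2 the smallest difference was 0.97 or 0.98 and the call was lost, and the same arrays ended the call of miR-7a* in neurons, at 0.96 and 0.97. The call of miR-872* was also lost with the 75th percentile over all miRNAs (0.84), with quantile normalization (0.62) and in the deposited series table (0.44).

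Under normexp background correction 1 of the 10 calls was kept, that of miR-99b* in microglia, and miR-124*, miR-30c-2*, miR-7a* and miR-872* turned their smallest difference to -0.28, -0.20, -0.35 and -0.22.

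**Figure D3:**
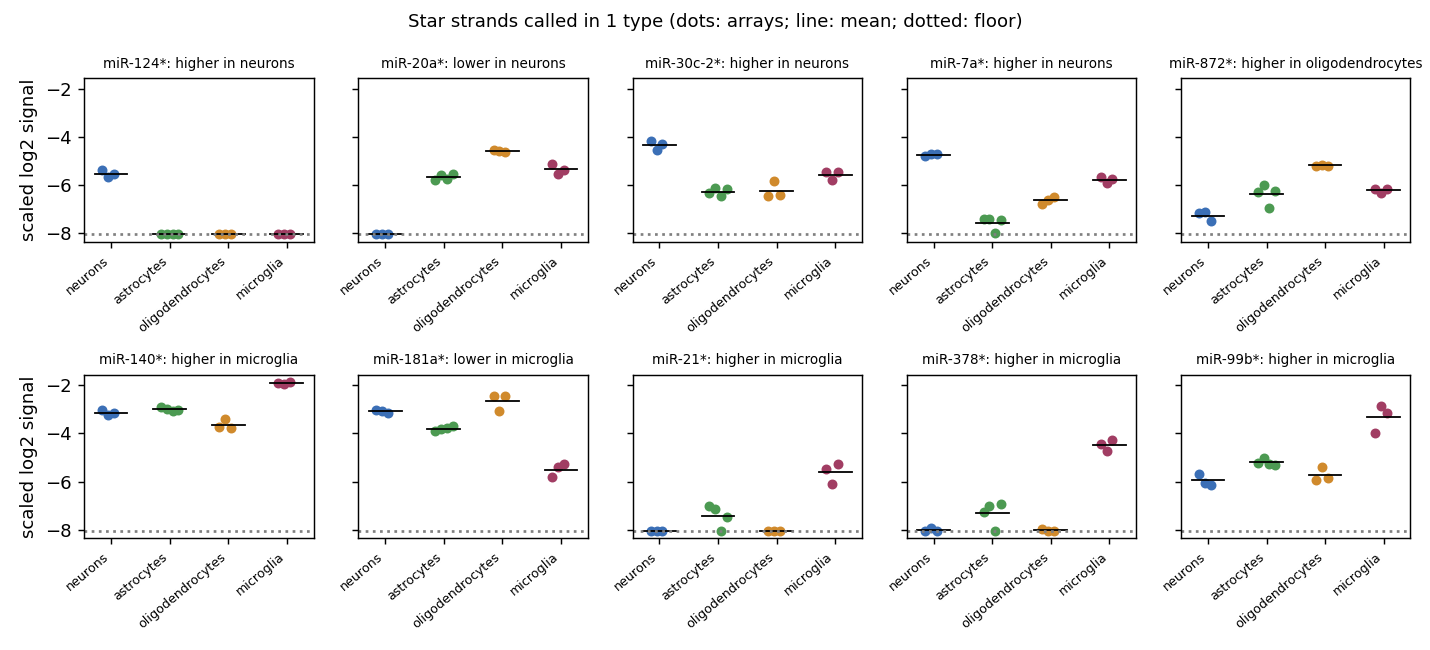
Scaled log2 signal of the 10 star strands called higher or lower in 1 type, with dots for arrays, a line for the mean of each type and a dotted line for the floor of -8.04. miR-124*, miR-21* and miR-378* lie at or near the floor in the types that did not detect them.

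All 5 star strands of the miR-30 family were tested and passed the F test, which 95.5% of all tested miRNAs did, and 2 of them were detected everywhere. miR-30e* averaged -2.92 ± 0.02 in neurons, -3.76 ± 0.07 in astrocytes, -3.35 ± 0.11 in microglia and -3.69 ± 0.03 in oligodendrocytes (SD, n = 3, 4, 3 and 3). miR-30a* averaged -3.49 ± 0.02, -3.81 ± 0.04, -3.42 ± 0.11 and -4.35 ± 0.04 in the same order of types. Both were among the 5 star strands with the highest signal in every type, as were miR-22* and miR-140*, and miR-181a* was so in all but microglia, where miR-99b* was. A high signal also depends on the probe, so it does not rank amounts.

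Of the let-7 star strands, 2 of 4 were tested and neither passed the F test for a difference among types, although both of their guides did. This does not show equal levels, since let-7d* had an SD of 1.93 over the microglia arrays. Microglia array 3 stood apart for the dim ones: let-7d* was -8.04, -7.03 and -4.30 and let-7b* -7.87, -7.68 and -4.84 on the microglia arrays, with the array 3 value far above the others each time. Of the 4 miR-29 star strands, miR-29a* and miR-29c* were tested and differed, and miR-29b-1* and miR-29b-2* were on no array while miR-29b was on all 13. miR-29c* stood at -4.30, -4.31 and -4.43 in neurons and -5.08, -4.78 and -4.37 in microglia, above -6.29, -6.30, -7.02 and -6.18 in astrocytes and -6.80, -7.22 and -6.97 in oligodendrocytes.

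miR-204*, from a hairpin known in choroid plexus and retinal pigment epithelium, was detected on neuron arrays only, at -6.87, -7.25 and -7.12, though its guide was detected on all neuron, astrocyte and oligodendrocyte arrays. miR-135a* was detected on the 3 neuron arrays and on 3 of 4 astrocyte arrays, and on no oligodendrocyte or microglia array, and its guide on no microglia array either. miR-126*, from an endothelial hairpin, was detected on 2 arrays, both of microglia, at -5.01, -4.34 and -5.29 over the 3 microglia arrays. Its guide miR-126 was detected on all 3 neuron and all 3 microglia arrays and on 1 astrocyte array, and miR-126* was not tested because 3 arrays were required.

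Some guides are made by several hairpins, whose star strands differ. miR-24-2* was detected on all 13 arrays and miR-24-1* on none, while miR-24, which both hairpins yield, was on all 13. miR-30c-2* was on 11 arrays and miR-30c-1* on 6. miR-125b* matched the arm of the miR-125b-2 hairpin, and miR-125b-3p, a separate name on the array, was detected on no array. These counts depend on each probe's sensitivity and were not tested against each other.

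There were 2 star strands detected on every array of a type in which no array detected the guide. Detection depends on each probe's sensitivity, so this does not show that the guide was absent. miR-296*, from a hairpin of the imprinted Gnas region in mouse, was detected on all 13 arrays, and miR-296 on none. miR-296* stood at -3.55, -3.95 and -3.50 in neurons, -4.25, -4.20, -4.82 and -4.68 in astrocytes, -5.50, -5.21 and -4.60 in microglia and -4.84, -4.13 and -4.63 in oligodendrocytes. On average it was highest in neurons and lowest in microglia, and the arrays of microglia, astrocytes and oligodendrocytes overlapped. It was lower in microglia than in neurons (log2 difference -1.44 ± 0.27 SE, limma adjusted p = 0.000393). In RefSeq the sequence of miR-296* carries the 5p name. miR-330* was detected on all oligodendrocyte arrays, at -5.61, -6.15 and -5.78, and all neuron arrays, at -5.21, -5.52 and -5.31. miR-330 was detected on no oligodendrocyte array and on 1 of 3 neuron arrays, and on no microglia array was either strand detected. miR-330* was higher in neurons than in astrocytes (log2 difference 2.43 ± 0.24 SE, limma adjusted p = 3.06e-06), of which 1 of 4 arrays detected it, while its neuron and oligodendrocyte levels were not separated (log2 difference 0.50 ± 0.26 SE, limma adjusted p = 0.101).

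The strand difference was taken on each array as the log2 star signal minus the log2 guide signal, in types where every array detected both. Because the strands are read by different probes, its size within a type does not give a ratio of molecules. Tests compared each pair only with itself between types. A strand called detected could still lie at the floor, as miR-151* did on some neuron arrays. The medians and the order of pairs given below describe signal only, and the medians cover different pairs in each type. Probes of 1 strand can still change unequally between types, and their values are given for miR-99b* and miR-125b*. The strand difference could be formed for 22 pairs in neurons, 11 in astrocytes, 13 in microglia and 17 in oligodendrocytes, with medians of -5.56, -4.92, -4.88 and -5.31. The guide was the brighter strand in all of these but 1, miR-99b in microglia. Next to it at the upper end was miR-140*, at -0.41 ± 0.10 in neurons, -0.32 ± 0.03 in astrocytes, -0.12 ± 0.12 in microglia and -0.39 ± 0.23 in oligodendrocytes. The lowest value was that of miR-21*, at -10.54 ± 0.18 in microglia.

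Near the top were also miR-30e*, between -3.03 and -2.66, miR-7a* at -3.36 ± 0.05 in neurons, miR-181a* at -3.24 ± 0.16 in astrocytes and miR-872* at -2.72 ± 0.25 in oligodendrocytes. The lowest were miR-125b* in neurons, astrocytes and oligodendrocytes, miR-124* at -8.66 ± 0.05 and miR-29a* at -8.61 ± 0.06 in neurons, and miR-29a* at -8.60 ± 0.42 and miR-20a* at -6.60 ± 0.16 in astrocytes. In oligodendrocytes let-7d* at -7.23 ± 0.21 and miR-30c-1* at -7.05 ± 0.46 followed, and in microglia miR-20a* at -6.90 ± 0.19 and miR-99a* at -5.80 ± 0.46.

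Between types, 18 pairs could be compared in at least 1 contrast, and 22 of 64 differences passed, over 11 pairs. They were fitted together with the hairpins named by arm, 36 in all. Passing were 3 of 10 pairs for neurons minus astrocytes (38.9% of all hairpins tested), 4 of 15 for neurons minus oligodendrocytes (30%), 3 of 10 for microglia minus neurons (33.3%), 2 of 10 for astrocytes minus oligodendrocytes (14.3%), 4 of 9 for microglia minus astrocytes (37.5%) and 6 of 10 for microglia minus oligodendrocytes (50%). In size 53 of the 64 were under 1 on the log2 scale and 6 were over 2, and those 6 all belonged to miR-99b* and miR-125b* in microglia. Of the 8 pairs measured in all types, 5 had type means within 1 of each other, and the median range was 0.58.

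The largest shift was that of miR-99b. Its strand difference was 0.57, 1.21 and 2.03 in microglia, against -4.21, -4.34 and -4.47 in neurons, -3.75, -3.57, -3.67 and -3.70 in astrocytes and -4.46, -3.82 and -4.37 in oligodendrocytes. Star exceeded guide on every microglia array and on no other array. The difference changed by 5.61 ± 0.29 SE, 95% interval 4.98 to 6.24, limma adjusted p = 2.02e-09 for microglia minus neurons, by 5.49 ± 0.29 SE, 95% interval 4.86 to 6.12, limma adjusted p = 2.89e-09 for microglia minus oligodendrocytes and by 4.94 ± 0.27 SE, 95% interval 4.35 to 5.53, limma adjusted p = 3.6e-09 for microglia minus astrocytes, the pair that shares a slide. Among neurons, astrocytes and oligodendrocytes no difference passed. The myeloid marker levels given above moved with the type here, and their part in the glial values was not tested.

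The neighbouring hairpins were looked up after these values were seen. The probes of miR-99b, let-7e and miR-125a lie within 673 bases of chromosome 1 in rn4, from 56486981 to 56487653. miR-125a-3p stood at -2.47, -1.13 and -1.59 in microglia, against -3.04, -3.56 and -3.16 in neurons, -4.75, -4.73, -4.96 and -4.76 in astrocytes and -4.01, -3.65 and -4.01 in oligodendrocytes. miR-125a-5p stood at -3.81, -3.13 and -3.85 in microglia, against -0.16, -0.27 and -0.04 in neurons, -0.63, -0.54, -0.79 and -0.81 in astrocytes and -1.03, -1.02 and -1.02 in oligodendrocytes. Its 3p arm was thus highest and its 5p arm lowest in microglia, and the 3p minus 5p difference changed by 4.96 ± 0.21 SE for microglia minus neurons and by 5.98 ± 0.19 SE for microglia minus astrocytes (limma adjusted p = 3.79e-10 and 1.75e-11). let-7e, between them, was -3.18, -2.64 and -3.88 in microglia, against 0.47, 0.71 and 0.76 in neurons, and its star was detected on no microglia array, so its strand difference could not be formed there.

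**Figure D4:**
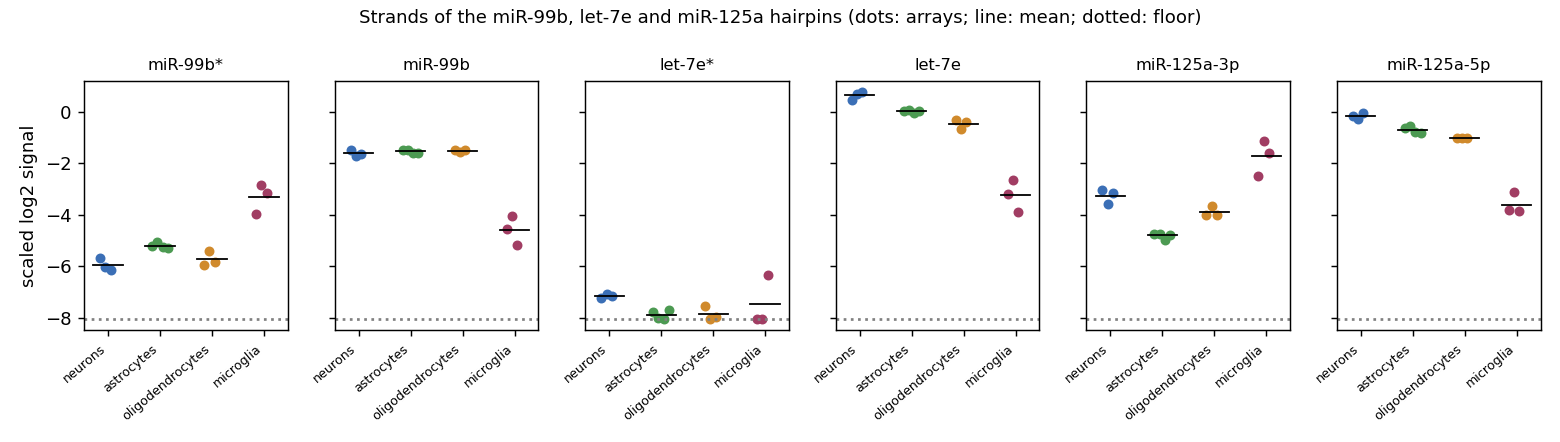
Scaled log2 signal of both strands of miR-99b, let-7e and miR-125a by type, star or 3p strand left of its partner, with dots for arrays, lines for means and a dotted line for the floor. In microglia miR-99b* and miR-125a-3p are high where miR-99b, let-7e and miR-125a-5p are low.

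miR-99a*, which has the same seed as miR-99b*, did not shift in this way. Its strand difference averaged -5.80 ± 0.46 in microglia, against -5.73 ± 0.16 in neurons, -5.39 ± 0.12 in astrocytes and -5.31 ± 0.03 in oligodendrocytes (SD). Star and guide were both lower in microglia, the star at -6.23 ± 0.47 against -3.85 ± 0.13 in neurons and the guide at -0.43 ± 0.05 against 1.87 ± 0.03. Of its 6 contrasts only microglia minus oligodendrocytes passed, at -0.49 ± 0.19 SE, 95% interval -0.90 to -0.08, limma adjusted p = 0.0445. That call held in 9 of 25 alternatives, was lost in 13 and turned its sign in 3.

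The miR-125b pair also shifted, with a guide that was lower in microglia. The strand difference was -5.84, -5.91 and -5.61 in microglia, against -10.03, -10.34 and -10.32 in neurons, -8.89, -8.88, -9.36 and -8.86 in astrocytes and -7.89, -9.22 and -8.31 in oligodendrocytes. Every microglia array lay above every other array. It changed by 4.44 ± 0.27 SE, 95% interval 3.85 to 5.04, limma adjusted p = 1.05e-08 for microglia minus neurons, by 3.21 ± 0.26 SE, 95% interval 2.65 to 3.77, limma adjusted p = 1.69e-07 for microglia minus astrocytes and by 2.69 ± 0.27 SE, 95% interval 2.09 to 3.28, limma adjusted p = 3.1e-06 for microglia minus oligodendrocytes. The guide miR-125b-5p averaged -0.49 ± 0.14 in microglia and 4.33 ± 0.02 in neurons, whereas miR-125b* averaged -6.28 ± 0.21 and -5.90 ± 0.17, a difference that did not pass (log2 difference -0.38 ± 0.18 SE, limma adjusted p = 0.0638).

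The 4 probes of miR-125b* disagreed. Of these, 2 lay at the floor on 10 and 9 of the 13 arrays. Of the remaining ones, probe 3 differed by 0.27 and probe 4 by -1.20 for microglia minus neurons, while the guide's probes differed by -4.71 and -4.86. The guide is also made by the miR-125b-1 hairpin, so its signal is not that of a single pair.

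**Figure D5:**
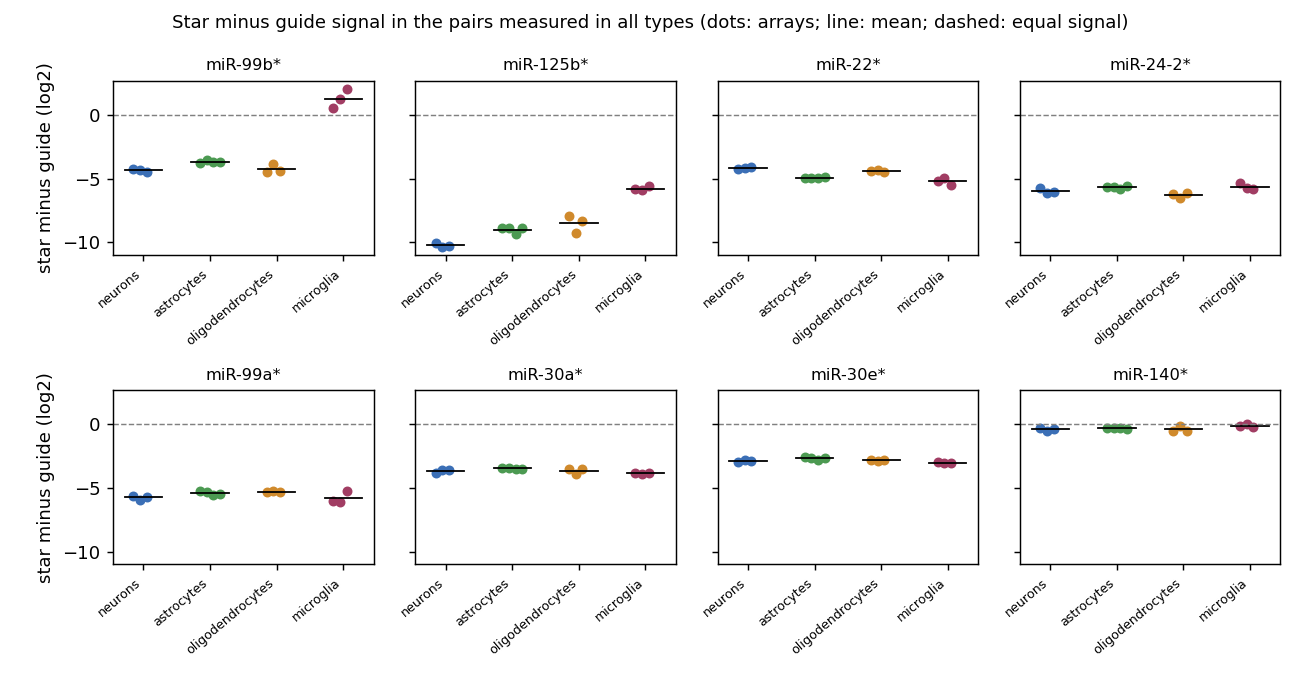
Star minus guide log2 signal of the 8 pairs measured in all types, with dots for arrays, lines for means and a dashed line where both signals are equal. miR-99b* crosses that line in microglia, and miR-140* lies just under it in all types.

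The other called differences were small. miR-22*, whose guide restrains growth in several tissues, had a strand difference of -4.22, -4.13 and -4.06 in neurons, -4.94, -4.96, -4.96 and -4.83 in astrocytes, -5.15, -4.97 and -5.48 in microglia and -4.42, -4.31 and -4.51 in oligodendrocytes. The difference was lower in microglia than in neurons (-1.06 (limma adjusted p = 9.88e-06)) and oligodendrocytes (-0.79 (limma adjusted p = 0.000203)), higher in neurons than in astrocytes (0.79 (limma adjusted p = 0.000255)) and lower in astrocytes than in oligodendrocytes (-0.51 (limma adjusted p = 0.00786)). The guide miR-22 did not pass between microglia and neurons (log2 difference -0.05 ± 0.10 SE, limma adjusted p = 0.656), while miR-22* did (log2 difference -1.11 ± 0.12 SE, limma adjusted p = 5.02e-06). miR-22* was read by 1 probe, so its differences could not be compared between probes.

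miR-181a* had a strand difference of -4.59, -4.28 and -4.53 in neurons, against -3.39, -3.34, -3.16 and -3.05 in astrocytes and -3.43, -3.92 and -3.44 in oligodendrocytes, without overlap between neurons and either type. The changes were -1.23 ± 0.15 SE, 95% interval -1.57 to -0.89, limma adjusted p = 0.000209 for neurons minus astrocytes and -0.87 ± 0.16 SE, 95% interval -1.23 to -0.51, limma adjusted p = 0.00498 for neurons minus oligodendrocytes. The guide is made by more than 1 hairpin, and the star matched that of miR-181a-1. For miR-872* the difference was -3.64, -3.64 and -3.89 in neurons, against -2.88, -2.43 and -2.84 in oligodendrocytes, a change of -1.005 (limma adjusted p = 0.00498). For miR-30c-2* it was -4.998, -5.43 and -5.20 in neurons, against -6.07, -5.53 and -5.96 in oligodendrocytes, a change of 0.64 (limma adjusted p = 0.0371).

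The remaining calls were miR-24-2*, higher in microglia than in oligodendrocytes (0.67 (limma adjusted p = 0.00344)) and in astrocytes than in oligodendrocytes (0.62 (limma adjusted p = 0.00786)), miR-20a*, lower in microglia than in oligodendrocytes (-0.56 (limma adjusted p = 0.00582)), and miR-30a* and miR-30e*, lower in microglia than in astrocytes (-0.38 (limma adjusted p = 0.0113) and -0.37 (limma adjusted p = 0.00435)). miR-140* passed in no contrast. Its largest change was 0.28 ± 0.12 SE, 95% interval 0.02 to 0.55, limma adjusted p = 0.0898 for microglia minus neurons. The calls of miR-99b*, miR-125b* and miR-181a* held in each of the 24 or 25 alternatives that gave a value. Each of the other 8 pairs lost a call or turned its sign in at least 1, with the deposited series table giving -0.03 for miR-22* in neurons minus astrocytes and 0.22 for miR-872* in neurons minus oligodendrocytes.

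As a description over the 13 arrays, which share 4 types, the levels of star and guide had a median Pearson r of 0.79 over the 27 pairs with both strands tested. It was above 0.8 for 12 pairs, reaching 0.98 for miR-20a*, miR-140* and miR-378*, and below 0 for 3, namely let-7e* (-0.12), miR-23a* (-0.02) and miR-99b* (-0.90). For let-7e* and miR-23a* the star values lay close to the floor. Floored values also entered high correlations: miR-20a* was at the floor on all neuron arrays, and miR-378* at or near it in neurons and oligodendrocytes. The 27 pairs include miR-124*, miR-204*, miR-21*, miR-23a* and miR-378*, which met the filter only through the type where they are highest.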

How the data were processed

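The samples were 13 Cy3-labelled total RNAs, 100 ng each, on Agilent rat miRNA arrays (350 miRNAs, 938 probes). The authors read them with Agilent Feature Extraction 9.5.3.1, per the file headers, and the deposited spot intensity values are background-subtracted and not scaled between arrays. The deposited gene-level files give each miRNA a total intensity and a detection call with probe positions in rn4. The deposited series table holds log2 values whose scaling is not stated in the labels, and it served as an alternative. Spots with an outlier call were dropped, and the rest averaged per probe and then per miRNA. Each array was scaled by its 75th percentile, taken over 119 miRNAs that all 13 arrays detected. A floor at 0.38% of it, the median of the arrays' lowest detected signals, was set before log2.

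Levels of the 268 miRNAs detected on at least 3 arrays were fitted with limma 3.58.1 (lmFit and eBayes, R 4.3.3) over all arrays. Strand differences of 36 hairpins were fitted by least squares, hairpin by hairpin, over types in which every array detected both strands. Their variances were then moderated with limma's squeezeVar. Benjamini-Hochberg adjustment ran over all miRNAs or hairpins tested, separately for the F test and for each of the 6 contrasts, and not across contrasts. A fold against a type with no detected array is a bound. For each array of that type, the highest of its lowest detected level, the floor and the star strand's own level was taken. The bound is against the mean of these values. The fits were also run on simulated data with shifts of known size in microglia. For strand differences that simulation treated every strand as detected and applied no floor, so it does not cover those steps. Named star strands were all called ones, the 5 brightest per type, the 4 largest called strand differences per contrast, the 3 highest and 3 lowest strand differences per type, and stars detected without the guide. The other values were named after they were seen. The members and lists were chosen with earlier results of these data known. Between same-numbered arrays of different types, deviations from the type means had correlations from -0.34 to 0.20. Whether a shared number marks a shared preparation was not tested, and the main fit used no pairing. Other steps ran in Python 3.11.15 with pandas 2.3.3, numpy 2.4.6 and matplotlib 3.10.9. Sequences came from RefSeq tables of GRCr8 and were matched by name. Each type lay on 1 slide, so the slide was not fitted. The number of arrays limits the precision.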

Additional observations from a re-analysis of the deposited data

Results flagged for a closer look

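Within the 4 astrocyte arrays, 25 sets of values (levels and strand differences of star strands detected on all 4, and 2 summaries per array) were examined for a value far from the rest. Such a value was found in 5 sets, and chance gives about 5% of sets. The sets are not independent, because a star strand can enter by its level and again by its strand difference. Both miR-125b* and miR-29a* did so here, and the count was not tested against that share. On array 3 the level of miR-125b* was -6.44 and that of miR-29a* -7.07, each below the other astrocyte arrays, and the star minus guide differences were low with them, at -9.36 and -9.23. On array 4 the star minus guide difference of miR-22* was -4.83, above the others. Array 3 was also the astrocyte array with the fewest detected star strands, 12, and with the fewest detected miRNAs of all kinds, 160.

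Star minus guide differed between types by limma's test of that difference in 22 cases. For microglia minus neurons the values were 5.61 for miR-99b*, 4.44 for miR-125b* and -1.06 for miR-22*. For microglia minus astrocytes they were 4.94 for miR-99b*, 3.21 for miR-125b*, -0.38 for miR-30a* and -0.37 for miR-30e*. For microglia minus oligodendrocytes they were 5.49 for miR-99b*, 2.69 for miR-125b*, -0.79 for miR-22*, 0.67 for miR-24-2*, -0.56 for miR-20a* and -0.49 for miR-99a*. For neurons minus astrocytes they were -1.23 for miR-125b*, -1.23 for miR-181a* and 0.79 for miR-22*. For neurons minus oligodendrocytes they were -1.76 for miR-125b*, -0.87 for miR-181a*, 0.64 for miR-30c-2* and -1.005 for miR-872*. For astrocytes minus oligodendrocytes they were -0.51 for miR-22* and 0.62 for miR-24-2*.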

How the results depend on the processing

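The strand shifts of miR-99b* and miR-125b* in microglia kept their direction and their call under every alternative that gave a value. For microglia minus neurons the range was 2.81 to 5.96 for miR-99b* and 4.36 to 5.92 for miR-125b*. The call of miR-99b* as higher in microglia also held in all 25 alternatives, with a smallest difference between 1.08 and 2.21. Of the 25 star strands differing among types, 15 were left with normexp correction and 9 with a filter of detection on all 13 arrays, which tests 9 of the 29. Calls of a star strand as higher in neurons (3) became 0 with normexp, 1 with the 75th percentile over all miRNAs, 1 with quantile normalization, 9 with no scaling, 0 in the deposited table and 0 with detection on all arrays. Calls lower in neurons (1) became 0 with normexp, 3, 4 and 0 with the 75th percentile over all, quantile normalization and detection on all arrays. Calls higher in oligodendrocytes (1) became 0 with normexp, in the deposited table and with detection on all arrays. With the 75th percentile over all and quantile normalization that count was 1, but the call of miR-872* was lost (0.84 and 0.62). Astrocytes gained 1 higher with quantile normalization. Calls higher in microglia (4) became 1 with normexp, 2 with detection on all arrays, 3 with no scaling (miR-140* lost, at 0.28) and 3 in the deposited table (miR-21* lost, at 0.97). Calls lower in microglia (1) became 0 with normexp, with quantile normalization, in the deposited table and with detection on all arrays, and 3 with no scaling. These scalings shift neurons against the rest: over all 268 tested miRNAs the median neurons minus astrocytes difference, 0.54 as reported, moved by -0.96 with the 75th percentile over all, -1.04 with quantile normalization, -0.81 in the deposited table and 0.30 with no scaling. For the other changes the cause was not tested.

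The smallest difference of a called star strand turned its sign with normexp for miR-124* (-0.28), miR-30c-2* (-0.20), miR-7a* (-0.35) and miR-872* (-0.22), and for miR-7a* with the 75th percentile over all (-0.16), quantile normalization (-0.21) and the deposited table (-0.13). Strand differences turned with normexp for miR-30c-2* (-0.85) and miR-872* (0.37) in neurons minus oligodendrocytes, miR-24-2* in astrocytes minus oligodendrocytes (-0.37) and, in microglia minus oligodendrocytes, for miR-24-2* (-0.29), miR-20a* (0.38) and miR-99a* (0.68). They turned with quantile normalization for miR-30c-2* (-0.22) and miR-99a* (0.054), and in the deposited table for miR-22* (-0.03 in neurons minus astrocytes, 0.015 in microglia minus neurons), miR-30c-2* (-0.46), miR-872* (0.22) and miR-99a* (0.21).

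Strand calls for neurons minus astrocytes (3) became 6 with normexp, 8 with quantile normalization, 7 in the deposited table and 5 with a trended robust prior. They became 10 without the detection mask, which lets undetected values in and tests 27 pairs. For neurons minus oligodendrocytes (4) they became 8, 12, 10 and, without the mask, 8, with 1 for detection on all arrays and 2 with the floor at the highest detection limit, an alternative chosen after seeing the data. For microglia minus neurons (3) they became 5, 8 and 8, and 14 without the mask. For astrocytes minus oligodendrocytes (2) they became 4 with normexp, 4 with quantile normalization and 11 without the mask. Without the mask, microglia minus astrocytes (4) became 13 and microglia minus oligodendrocytes (6) became 14. Detection from spots well above background in place of the gene-level call gave 21 star strands on every neuron array, 8 on every astrocyte array, 14 on every oligodendrocyte array and 11 on every microglia array.

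Leaving out each array in turn gave 23 to 27 star strands differing among types, 2 to 5 higher and 1 to 2 lower in neurons, 0 to 1 higher in oligodendrocytes, and 4 higher each time and 1 to 2 lower in microglia. The microglia count includes miR-21* and miR-378*, and the neuron count miR-124* where it was tested. These met the filter only through the type where they are high, so the counts are no support for them. Strand calls ran from 3 to 7 for neurons minus astrocytes (7 without astrocyte array 3, 6 without oligodendrocyte array 2 or microglia array 3), 3 to 6 for neurons minus oligodendrocytes, 3 to 9 for microglia minus neurons and 4 to 7 for microglia minus astrocytes (9 and 7 without microglia array 3). The count higher in neurons was 5 without oligodendrocyte array 2. Whether arrays that share a number share a preparation was not tested. With the replicate block 25 star strands differed among types, as without it, and strand calls were 3 of 15 for neurons minus oligodendrocytes and 5 of 10 for microglia minus oligodendrocytes. Star strands at the floor carry only bounds.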
